A study of Mus musculus with 6 samples.

Results

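The haematopoietic fraction of thymic stroma, sorted as CD45+EpCAM- cells, was compared between mice that lack TNF and mice that lack both TNF and the NF-kB subunit RelA. The comparison rests on 2 arrays, the TNF/RelA-DKO array minus the TNF-KO array, of 6 in the series, and covers the genes that passed the scanner's background test on either. These were 14613 of the 20866 genes named on the array. The labels call the genotypes TNFalpha-KO (TKO) and TNFalpha and RelA double KO (TAKO), on the C57BL/6 strain, so TNF is absent from both and RelA from the second. Mice were 1.5 to 2 weeks old, and each array holds RNA pooled from 10 thymi. Digested thymi were spun on a Percoll gradient, and the light cells positive for the leukocyte antigen CD45 and negative for the epithelial antigen EpCAM were sorted, a fraction that the study describes as holding macrophages or dendritic cells. The labels give neither the sex of the mice nor the disrupted exons. The other arrays, used here for comparison, hold CD4+CD25hi thymocytes of 5 mice and CD45-EpCAM+ epithelial cells of 10 thymi per genotype. With 1 pooled array per genotype no difference within this pair has a replicate check, and values are given as description.

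RelA, also called p65, pairs with p50 to form the canonical NF-kB dimer, which inhibitor proteins of the IkB family hold in the cytoplasm until a receptor such as that for TNF, CD40 or a Toll-like receptor releases it. Mice without RelA die as embryos unless TNF is removed too, which is why the TNF knockout is the control. In myeloid cells RelA drives cytokine and chemokine genes. In the thymus, dendritic cells present self-antigens on MHC class II to developing thymocytes, macrophages clear the many thymocytes that die, and plasmacytoid dendritic cells, specialised in type I interferon, and B cells are small resident populations.

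A gene's level is the log2 of its probe's processed signal above the 75th percentile of all probes on the same array, so 0 marks that percentile. A difference is the TNF/RelA-DKO level minus the TNF-KO level on the log2 scale. Where a gene was not well above background on 1 array, the fold is a bound. The 2 arrays were of like brightness, with 75th-percentile signals of 633 and 675 and 62.1% and 65.0% of probes well above background. They shared a slide. Probes for the same gene disagreed in their difference with an SD of 0.21 over 3503 genes, and repeated spots of 1 probe with a median SD of 0.06 on each array. These figures cover measurement error only, not the spread between pools of mice.

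Rela itself stood at 4.04 on the TNF-KO array and 3.30 on the TNF/RelA-DKO array, a difference of -0.74. On the CD4+CD25hi arrays Rela differed by -1.86, and on the CD45-EpCAM+ arrays by -2.02. The limma interaction, which sets the CD45+EpCAM- difference against the mean of the other populations, gave 1.20 for Rela (SE 0.35, unadjusted p = 0.0384, adjusted p = 1). Rela is read by a single probe of unknown position relative to the disrupted exons, and the signal left says nothing about protein. Tnf, disrupted in both genotypes, had levels of -0.57 and -0.64.

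The sorted cells carried the markers of the gate, together with much thymocyte RNA. Ptprc, which encodes CD45, had levels of 3.43 and 3.67 (TNF-KO first, here and below), and the epithelial markers Epcam (-4.36 on both) and Krt8 (-3.65 and -4.22) were near the background. Foxn1, which marks thymic epithelium, the fibroblast marker Pdgfra and the natural killer receptor gene Ncr1 were not well above background on either array. The macrophage genes C1qa (0.72 and 1.49) and Adgre1 (-0.50 and 0.04) and the dendritic cell integrin gene Itgax (0.93 and -0.54) were measured on both. Cd3e, which encodes the CD3 epsilon chain, had levels of 5.67 and 5.77 against 6.00 and 5.97 on the CD4+CD25hi arrays, and Rag1, a gene of immature thymocytes, 4.40 and 3.76. The 22 T-lineage genes differed by a median of 0.10, with 0 of 22 at least 2-fold apart. Throughout, fewer cells of a type and less RNA per cell cannot be told apart.

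**Figure D1:**
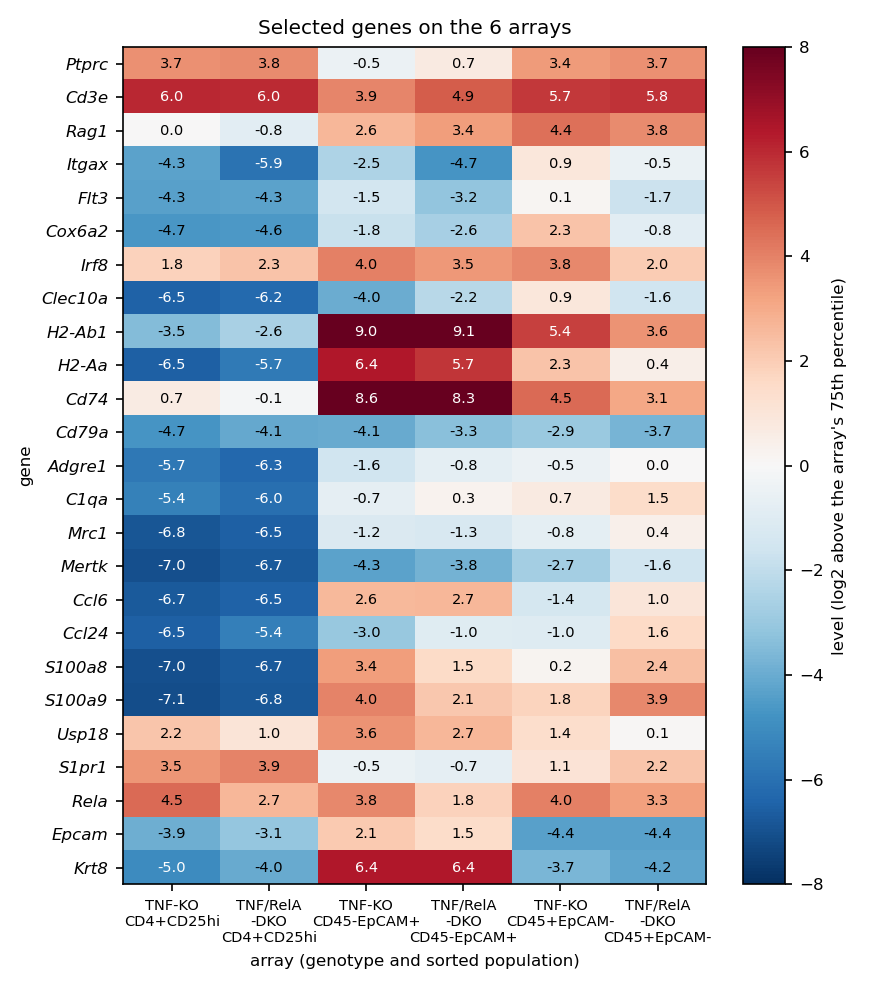
Levels of 25 genes (rows) on the 6 arrays (columns, genotype and population), as log2 above the array's 75th percentile, in colour and in figures; levels are to be read along a row. In the last 2 columns Cd3e stays near 5.7, Itgax goes from 0.9 to -0.5, H2-Ab1 from 5.4 to 3.6 and S100a8 from 0.2 to 2.4, while Epcam stays at -4.4.

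Of 14586 genes with a fold, 265 (1.82%) were at least 2-fold higher and 303 (2.08%) at least 2-fold lower on the TNF/RelA-DKO array, 568 (3.89%) in all. The median difference was -0.01, and 96.1% of genes lay within 2-fold. Genes were also taken apart by their mean level over the same 2 arrays, so a gene could enter a class through the array on which it was high, and the shares are descriptions. Of 855 genes with a mean level at least 4-fold above that on the CD4+CD25hi arrays, 89 (10.4%) read higher by 2-fold or more and 106 (12.4%) lower, against 1.22% and 1.34% of the 13463 genes within 4-fold. Of 211 genes at least 4-fold above both other populations, 11 (5.21%) were higher and 11 (5.21%) lower by as much. The list counts below are to be read beside these shares and the 1.82% and 2.08% of all genes. Among the brightest genes, those at or above 3 on the brighter array and measured on both, 5 of 1816 were at least 2-fold higher and 15 lower. With normexp background correction the counts were 68 higher and 108 lower in place of 265 and 303.

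**Figure D2:**
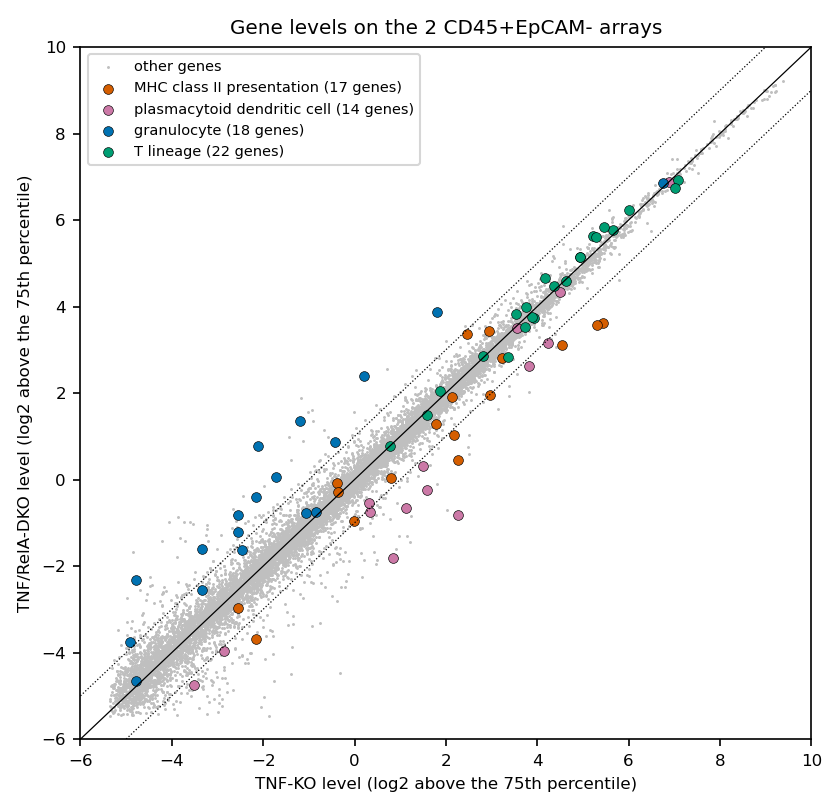
Level of each gene well above background on both arrays on the TNF-KO array (x axis) and the TNF/RelA-DKO array (y axis), both log2 above the 75th percentile; the solid line is equality and the dotted lines are 2-fold. T-lineage genes lie near the solid line, and MHC class II and plasmacytoid dendritic cell genes reach below the lower dotted line. Granulocyte genes lie above the solid line, in part past the upper dotted line.

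Genes of MHC class II presentation were lower on the TNF/RelA-DKO array. 7 of 17 measured genes lay 2-fold or more below the TNF-KO array and 0 above it, at a median difference of -0.77. Among all genes 2.08% were lower by as much, and among those at least 4-fold above the CD4+CD25hi arrays 12.4%. H2-Ab1, which encodes the beta chain of I-A, had a level of 5.44 on the TNF-KO array and 3.62 on the TNF/RelA-DKO array, 3.54-fold lower. H2-Aa, its alpha chain, went from 2.26 to 0.44, 3.53-fold lower. H2-Eb1, the beta chain of I-E, went from 5.31 to 3.57, 3.33-fold lower. These class II chain genes were thus lower by like amounts, and the 2 probes of H2-Ab1 gave differences of -1.82 and -1.77. Cd74, the invariant chain that guides class II molecules to the endosome, went from 4.54 to 3.10, a difference of -1.45. H2-DMb2 (-2.16 to -3.68) and H2-DMb1 (2.17 to 1.03), chains of the peptide-loading H2-DM, differed by -1.52 and -1.14. Ctsl, the gene of cathepsin L, which degrades the invariant chain, differed by -1.02. Not all members were lower: Lgmn, an endosomal protease, differed by 0.91, and the costimulatory ligand genes Cd80 and Cd86 by 0.30 and 0.07. Ciita, the master activator of class II genes, had levels of -2.55 and -2.96, a difference of -0.41. Summed over the list, signal relative to the 75th percentile was 158 on the TNF-KO array and 77.8 on the TNF/RelA-DKO array.

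The promoters of H2-Aa and H2-Eb1 are shown as class II chain genes that were at least 2-fold lower and held a Y box. Of the 17 list genes 13 had a window, H2-Ab1 and Cd74 not among them. RefSeq windows of 250 bases before the transcription start (GRCm38.p6, 5′ to 3′ on the gene's strand) held the Y box, here CTGATTGG on either strand, in H2-Aa and H2-Eb1, and H2-Aa also held the kappaB consensus, the sequence that NF-kB dimers bind. Capitals mark these matches.
H2-Aa, chr17:34287824-34288073, minus strand: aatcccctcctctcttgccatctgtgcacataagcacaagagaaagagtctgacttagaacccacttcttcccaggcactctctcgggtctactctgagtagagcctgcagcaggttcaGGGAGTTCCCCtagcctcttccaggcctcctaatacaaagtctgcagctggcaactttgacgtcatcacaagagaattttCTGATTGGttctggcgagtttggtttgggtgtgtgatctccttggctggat
H2-Eb1, chr17:34305617-34305866, plus strand: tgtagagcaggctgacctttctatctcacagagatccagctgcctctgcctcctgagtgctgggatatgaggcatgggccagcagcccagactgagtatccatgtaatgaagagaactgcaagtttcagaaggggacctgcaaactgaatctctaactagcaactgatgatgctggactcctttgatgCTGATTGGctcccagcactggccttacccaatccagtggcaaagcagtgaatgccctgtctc
The Y box was found in 3.83% of all 32851 such windows and in 4.43% of all genes with a window. Of the 13 class II list genes with a window, 3 held it. The third was H2-Oa, a chain of the H2-DM inhibitor H2-O, which differed by -0.50. Over all genes it stood in 10 of 244 at least 2-fold lower (4.1%), in 5 of 206 at least 2-fold higher (2.43%) and in 5.83% of those with a fold, so the lower genes held it at a smaller share than all genes. A match is a description of the letters and shows no binding.

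Genes of plasmacytoid dendritic cells were lower without exception in sign. Of 14 measured, 10 were lower by 2-fold or more and 0 higher, all 14 differences were below 0, and the median was -1.15. Cox6a2, a muscle-type cytochrome oxidase subunit that plasmacytoid dendritic cells also express, went from 2.26 to -0.83, 8.49-fold lower. Klk1, a kallikrein gene, went from 0.84 to -1.81, 6.30-fold lower. Spib, a transcription factor of the lineage, went from 1.58 to -0.24, 3.52-fold lower. Pld4, an endosomal nuclease, differed by -1.78. Runx2 differed by -1.23 at dim levels, and by -0.49 as the mean over its probes. Bst2, a surface antigen of mouse plasmacytoid cells that interferon also induces, differed by -1.21. Tcf4, the factor E2-2 that keeps up plasmacytoid identity, went from 1.50 to 0.30, 2.29-fold lower. Siglech, often used as their marker, differed by -0.03, but its probe read 5.35 to 7.42 on all 6 arrays, thymocytes and epithelial cells included. Its other probe, where well above background, differed by -3.17. The summed level of the list, 204 and 168, is carried by the Siglech probe and a few bright genes.

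Conventional dendritic cell genes were lower too, but with exceptions. Of 28 measured, 9 were lower by 2-fold or more and 0 higher, with a median of -0.64, which was -0.43 with normexp. Clec10a, a galactose-binding lectin also seen on macrophages, went from 0.91 to -1.60, 5.70-fold lower. Cd209a, a DC-SIGN homologue, went from -2.33 to -4.25, 3.79-fold lower. Flt3, the receptor whose ligand drives dendritic cell development, went from 0.14 to -1.70, 3.57-fold lower. Both probes of Flt3 were lower, with differences of -1.83 and -1.73. Irf8, a factor that type 1 and plasmacytoid dendritic cells need, went from 3.81 to 2.03, 3.44-fold lower. Clec9a, a receptor of type 1 dendritic cells for dead cells, differed by -1.75, and Itgax, which encodes CD11c, by -1.46. Differences of 5 members lay above 0. Among them were Sirpa (0.50), which marks type 2 cells and macrophages, and Ccr7 (0.60), which mature thymocytes also express. Zbtb46, the factor that sets conventional dendritic cells apart, was dim on both arrays and differed by -0.08, and Xcr1 was at least 1.50-fold lower.

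**Figure D3:**
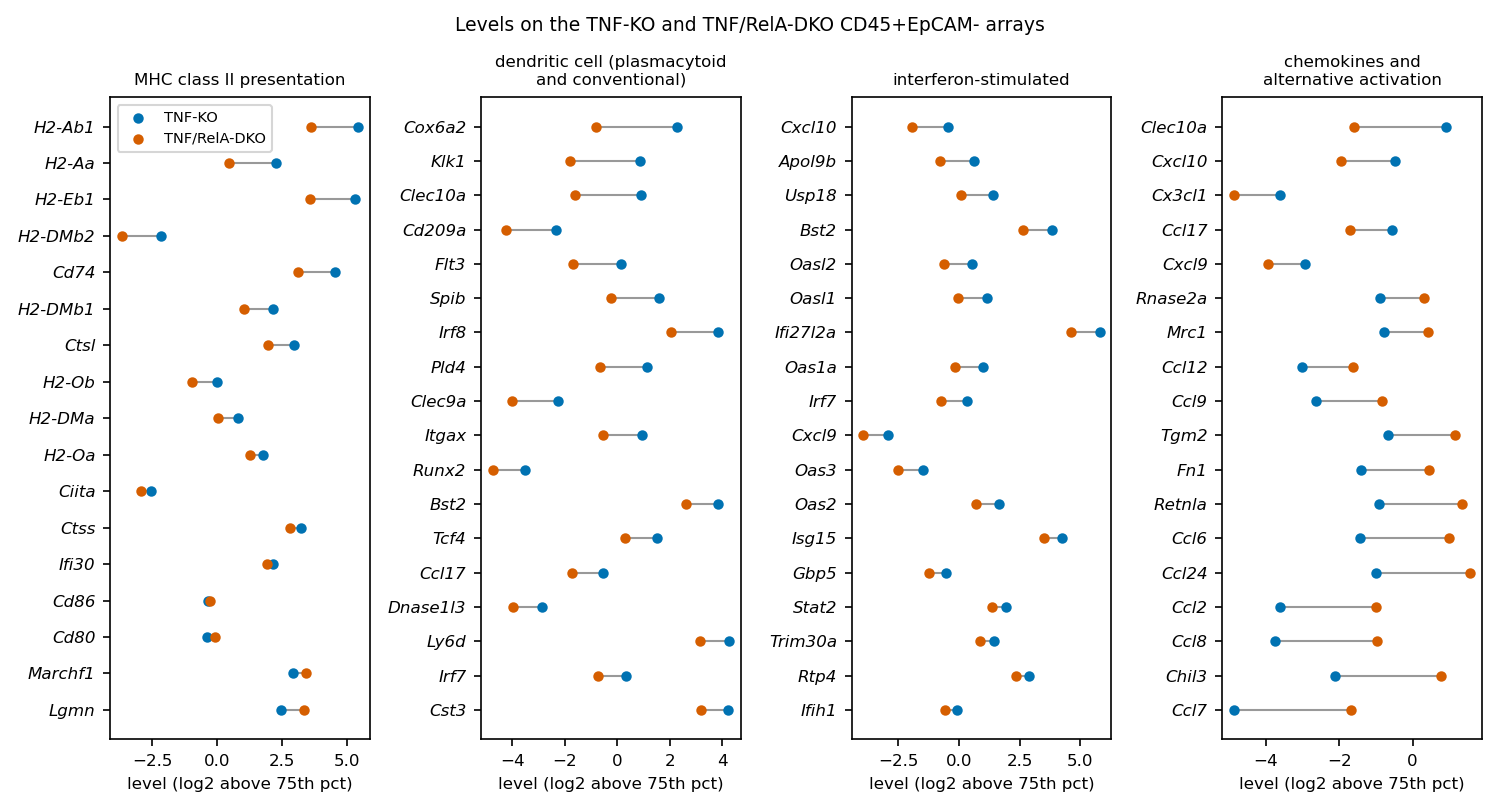
Levels on the TNF-KO (blue) and TNF/RelA-DKO (orange) arrays, log2 above the 75th percentile, of up to 18 genes per panel with the largest differences among those well above background on both arrays. In the MHC class II, dendritic cell and interferon-stimulated panels nearly all orange points lie left of the blue (H2-Ab1, Cox6a2 and Cxcl10 lead). In the last panel Ccl7, Chil3 and Ccl8 have the largest shifts from blue to the right.

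B cell genes showed the same direction at lower levels. Of 18 measured, 6 were lower by 2-fold or more and 1 higher, with a median of -0.74 (-0.48 with normexp). Jchain, which joins polymeric antibodies and is also made by plasmacytoid dendritic cells, went from -0.29 to -2.49, 4.59-fold lower. Fcrla differed by -2.19, Fcmr, the IgM receptor gene, by -1.90, and Blnk, an adaptor of the B cell receptor, by -1.48. Cd79a, part of the B cell receptor, differed by -0.79, while Vpreb3 was 2.31-fold higher at dim levels. Of these genes, Blnk and Jchain are not confined to B cells, so the list overlaps in use with the plasmacytoid one. The list's summed level was 21.6 and 13.1.

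Interferon-stimulated genes were lower across the list. Of 31 measured, 12 were lower by 2-fold or more and 0 higher, 27 differences were below 0, and the median was -0.58. Cxcl10, a chemokine that draws CXCR3-bearing T cells, went from -0.48 to -1.96, 2.79-fold lower. Usp18, which shuts off the interferon receptor, went from 1.39 to 0.09, 2.47-fold lower. Apol9b differed by -1.41. Ifi44 was at least 3.99-fold lower. The oligoadenylate synthetase family, sensors of double-stranded RNA, was lower as a group, with Oasl2 at -1.18, Oasl1 at -1.17, Oas1a at -1.16, Oas3 at -1.003 and Oas2 at -0.95. Irf7, the factor that amplifies type I interferon in plasmacytoid dendritic cells, differed by -1.07, while Ifit1 differed by -0.17. The list's summed level was 147 and 83.9. Bst2, Irf7 and Cxcl10 also stand in other lists. On the CD4+CD25hi arrays the list's median was -0.53, with 6 of 30 genes past 2-fold on the lower side against 1.28% of all genes there. On the CD45-EpCAM+ arrays it was 0.13.

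Promoters of an interferon-stimulated chemokine and of an oligoadenylate synthetase are shown because they hold the core of the interferon response element, GAAA and GAAA with any 2 bases between them, on either strand. Capitals mark it, and in Cxcl10 also matches to the kappaB consensus and the Y box. The windows are those of RefSeq, as above. Adjoining matches run together.
Cxcl10, chr5:92348890-92349139, minus strand: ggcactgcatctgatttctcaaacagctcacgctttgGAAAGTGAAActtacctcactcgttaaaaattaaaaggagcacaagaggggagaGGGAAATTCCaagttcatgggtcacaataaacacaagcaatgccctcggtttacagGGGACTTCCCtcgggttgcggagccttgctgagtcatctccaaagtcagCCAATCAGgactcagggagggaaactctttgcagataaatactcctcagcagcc
Oas1a, chr5:120907526-120907775, minus strand: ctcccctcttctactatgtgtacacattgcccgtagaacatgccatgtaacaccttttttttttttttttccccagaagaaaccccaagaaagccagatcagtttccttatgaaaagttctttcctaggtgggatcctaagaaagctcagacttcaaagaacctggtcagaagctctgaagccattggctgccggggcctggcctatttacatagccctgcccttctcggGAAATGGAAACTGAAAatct
The core was found in 16 of 24 interferon-stimulated genes with a window and in 3.46% of all genes with a window. The 16 genes with the core had a median difference of -0.58, and the 8 without it -1.05. Among genes at least 2-fold lower, 21 of 244 with a window held the core (8.61%), against 8 of 206 at least 2-fold higher (3.88%) and 3.35% of all genes with a fold.

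Genes of the NF-kB pathway lay within 2-fold with 1 exception, and most were slightly lower. Of 24 subunits and regulators measured, 1 was lower by 2-fold or more and 0 higher, with a median of -0.17 and 19 differences below 0. Nfkb2, which encodes p100 and its product p52, went from 0.50 to -0.60, 2.14-fold lower, and was within 2-fold with normexp. Relb, the partner of p52, went from 0.56 to -0.40, 1.94-fold lower, and its other probe differed by -0.83. The inhibitor genes Nfkbie (1.30 to 0.60) and Nfkbia (4.15 to 3.63), which NF-kB itself switches on, differed by -0.70 and -0.52. Nfkb1, which encodes p105 and p50, differed by -0.19, and the feedback inhibitor gene Tnfaip3, which encodes A20, by -0.40. Rel was not well above background on either array.

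NF-kB target genes went both ways. Of 38 measured, 4 were at least 2-fold higher and 5 lower, and the median was -0.11. Cd40, the receptor by which T cells license dendritic cells and B cells, went from -0.64 to -2.48, 3.59-fold lower. Traf1, a signalling adaptor of the TNF receptor family, went from 1.71 to 0.59, 2.17-fold lower. Gadd45b, a stress-response gene, differed by -1.26. Higher on the TNF/RelA-DKO array were Ccl2 (2.63), Lcn2 (1.75), Il1b (1.13) and the adhesion molecule gene Vcam1 (1.13, with its other probe at 1.44). Among 23 genes of the TNF receptor family and its ligands, 2 were at least 2-fold lower: Cd40 and Cd70, the ligand of CD27, which went from -2.98 to -5.38.

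The kappaB consensus stood in 8 of 20 pathway genes and in 10 of 24 target genes with a window, against 4.46% of all genes with a window. Nfkb2 is shown as the pathway gene that was at least 2-fold lower, and Spib as a plasmacytoid gene with a match. Nfkb2 has 3 windows, of which only the first is printed. Capitals mark the consensus.
Nfkb2, chr19:46304487-46304736, plus strand: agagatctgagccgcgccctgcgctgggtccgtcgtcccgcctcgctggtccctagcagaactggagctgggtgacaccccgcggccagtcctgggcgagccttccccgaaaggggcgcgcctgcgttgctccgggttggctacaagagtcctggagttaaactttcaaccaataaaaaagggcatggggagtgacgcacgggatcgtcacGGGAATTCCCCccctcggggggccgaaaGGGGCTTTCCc
Spib, chr7:44532072-44532321, minus strand: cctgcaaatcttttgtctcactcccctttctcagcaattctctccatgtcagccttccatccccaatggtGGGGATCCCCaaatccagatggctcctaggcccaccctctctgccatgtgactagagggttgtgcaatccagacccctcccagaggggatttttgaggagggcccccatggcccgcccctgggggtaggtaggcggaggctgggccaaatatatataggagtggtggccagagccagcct
Target genes with the consensus had a median difference of -0.39 over 10 genes, and those without it -0.04 over 14. In the class II list the order was the other way, with a median of -0.23 over the 3 genes with the consensus and -0.86 over the 10 without it. Pathway genes had -0.30 over 8 with it and -0.13 over 12 without it, and interferon-stimulated genes -1.19 over 4 and -0.55 over 20. Among genes with the consensus, Nfkb2, Nfkbia, Nfkbie and Tnfaip3 stand in both the pathway and the target list. Cxcl10 stands in the target and the interferon-stimulated list, so the medians of these lists are not independent. Over all genes with a window, it was found in 17 of 244 at least 2-fold lower (6.97%), in 13 of 206 at least 2-fold higher (6.31%) and in 5.25% of those with a fold.

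Macrophage genes were on balance higher, with exceptions among genes that dendritic cells share. Of 29 measured, 7 were at least 2-fold higher and 3 lower, and the median was 0.54. Mrc1, the mannose receptor, went from -0.79 to 0.43, 2.32-fold higher. Hmox1, which degrades haem, went from -0.58 to 0.55, 2.20-fold higher, with its other probe at 0.51. Mertk, a receptor for apoptotic cells, went from -2.74 to -1.60, 2.19-fold higher. Trem2 (2.14-fold), Cd14 (2.02-fold) and Fcgr1 (2.02-fold), genes of the macrophage surface, were higher as well. With normexp Hmox1 (0.96), Mertk (0.71), Cd14 (0.49) and Trem2 (0.44) lay within 2-fold. The complement genes C1qa, C1qb and C1qc differed by 0.77, 0.81 and 0.81, the growth factor receptor gene Csf1r by 0.68 (its probes from 0.22) and Adgre1, an adhesion receptor gene of macrophages, by 0.54. Lower were Mpeg1 (3.38 to 1.94), which encodes perforin-2, Tyrobp (3.57 to 2.43), the adaptor of many myeloid receptors, and Cybb (-1.85 to -2.94), the catalytic NADPH oxidase subunit. Lyz2, a myeloid lysozyme, differed by -0.37. The summed level of the list was 68.9 and 74.3.

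Receptors and bridging molecules for apoptotic cells and for antibodies held members of either direction. Of 28 genes of apoptotic cell uptake, 4 were higher by 2-fold or more and 1 lower, with a median of 0.28. Tgm2, a transglutaminase of engulfing macrophages, went from -0.67 to 1.15, and Msr1, a scavenger receptor, was at least 2.68-fold higher. Abca1, the cholesterol exporter, differed by 1.02. Havcr1, which encodes TIM-1, was at least 6.61-fold lower. Among 23 Fc receptor and C-type lectin genes, 6 were higher by 2-fold or more and 6 lower, with a median of 0.49 (0.23 with normexp). Fcgr4, an activating receptor for IgG, went from -2.67 to -0.68, 3.96-fold higher, and Clec4d was at least 3.22-fold higher. The lower 6 were Clec10a, Cd209a, Cd209d, Clec9a, Cd207 and Fcer2a, lectins of dendritic cells and the low-affinity IgE receptor of B cells. Of 18 complement genes 1 was at least 2-fold higher, the surface regulator Cd55 (1.23), and 2 were lower, Itgax and Cd59a (-1.14), with a median of 0.43.

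Genes linked to alternative activation of macrophages were higher in part. Of 22 measured, 8 were at least 2-fold higher and 2 lower. The list's median was 0.245, and 0.02 with normexp. Arg1, arginase of alternatively activated macrophages, was not well above background on the TNF-KO array and stood at -1.01 on the TNF/RelA-DKO array, at least 21.1-fold higher. Chil3, which encodes Ym1 and also stands in the granulocyte list, went from -2.12 to 0.76, 7.41-fold higher. Retnla, which encodes the secreted protein Fizz1, went from -0.92 to 1.35, 4.80-fold higher. Fn1, which encodes fibronectin, differed by 1.86. Clec10a and Ccl17, which dendritic cells also make, were the lower 2. Chil3 was also higher in CD45-EpCAM+ cells (2.83) and CD4+CD25hi thymocytes (2.62), and Retnla (3.16) and Arg1 (2.64) in CD45-EpCAM+ cells. So these genes were higher in more than 1 population.

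Chemokine genes went both ways, with monocyte and eosinophil attractants among the higher. Of 21 measured, 7 were higher by 2-fold or more and 4 lower, with a median of 0.06. Ccl7, a monocyte attractant that binds CCR2, went from -4.86 to -1.68, 9.08-fold higher. Ccl8 went from -3.74 to -0.98, 6.80-fold higher. Ccl2, the main CCR2 ligand, went from -3.61 to -0.98, 6.18-fold higher. These were dim on the TNF-KO array and stayed below the 75th percentile on the TNF/RelA-DKO array. Ccl24, an eosinophil attractant, went from -1.01 to 1.57, 5.97-fold higher. Ccl6, a myeloid chemokine, went from -1.43 to 0.98, 5.34-fold higher. Ccl9 and Ccl12 differed by 1.81 and 1.39. The lower 4 were Cxcl10 (-1.48), Cx3cl1 (-1.24), Ccl17 (-1.16) and Cxcl9 (-1.02, its other probe lower still), ligands for receptors on T cells, natural killer cells or patrolling monocytes. Among 24 receptor genes, 4 were at least 2-fold higher, Fpr2 (2.91-fold), Ltb4r1 (2.22-fold), Fpr1 (2.16-fold) and S1pr1 (2.14-fold), the first 3 of them receptors of neutrophil and monocyte attractants, and Ccr6 was lower (-1.89).

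**Figure D4:**
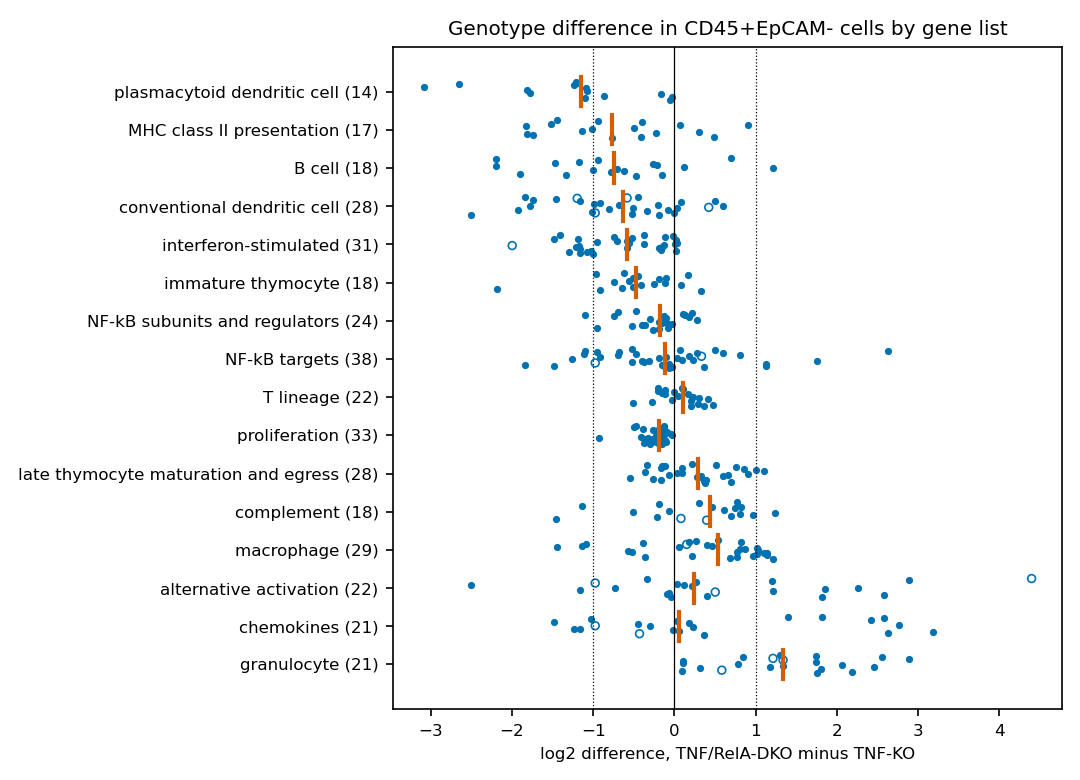
Difference of each measured gene (points) in 16 lists (rows, number of genes in brackets), log2, TNF/RelA-DKO minus TNF-KO; open points are bounds, orange bars are list medians and dotted lines mark 2-fold. The medians run from -1.15 for plasmacytoid dendritic cell genes to 1.33 for granulocyte genes, while T-lineage genes lie within 2-fold.

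Granulocyte genes were higher in every member measured. Of 21, 14 were at least 2-fold higher and 0 lower, and the median was 1.33, or 0.86 with normexp. S100a8 went from 0.21 to 2.40, 4.55-fold higher. S100a9, its partner in calprotectin, went from 1.81 to 3.87, 4.19-fold higher. Stfa1, a stefin of neutrophils, went from -1.20 to 1.36, 5.88-fold higher. The secondary granule genes Camp (1.30), Ltf (1.33), Ngp (1.75) and Lcn2 (1.75) were higher as a group, as was Cebpe (2.46), the factor that drives granule formation. The primary granule genes Mpo (0.11) and Elane (0.31) differed little. Stefin genes resemble each other closely, so the values of Stfa1, Stfa2, Stfa3 and Cstdc5 are uncertain as to the gene. The summed level of the list was 117 and 147.

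In CD45-EpCAM+ cells S100a8 and S100a9 had the opposite sign, -1.82 and -1.86, and levels of 3.35 and 3.997 on the TNF-KO array, above those in CD45+EpCAM- cells. Eosinophil and mast cell genes numbered 10 measured, 3 of them at least 2-fold higher, Ear1 and Ear2 at 1.15 each, which are near-identical ribonuclease genes, and Siglecf, at least 2.23-fold. Their median was 0.49, or 0.21 with normexp. As the mean over its probes Siglecf differed by 0.48. Of 11 erythroid and megakaryocyte genes 3 were at least 2-fold higher, all globins: Hbb-bt (1.82), Hba-a1 (1.64) and Hbb-bs, at least 3.79-fold. The median of this list was 0.26, and 0.05 with normexp. What part granulocytes or red cells carried into the sort have in other differences was not tested.

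Thymocyte genes in the sort lay mostly within 2-fold. Of 18 immature thymocyte genes 1 was lower by 2-fold or more, and the median was -0.48. Dntt, the polymerase that adds bases to receptor joints, went from 6.50 to 5.76. Rag1, which cuts DNA for receptor joining, went from 4.40 to 3.76. The exception past 2-fold was the adhesion gene Cdh1 (-2.18), which other cells also express. Of 28 genes of late maturation and egress 2 were higher by 2-fold or more, with a median of 0.29. S1pr1, the receptor that guides mature thymocytes out, went from 1.11 to 2.21. Gimap3, a lymphocyte GTPase gene, went from 2.56 to 3.57, and Klf2, which activates S1pr1, from 3.30 to 4.15. The immature and the mature lists thus lay on opposite sides of 0, the immature one also in CD4+CD25hi thymocytes (-0.48) but not in CD45-EpCAM+ cells (0.60).

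Among other lymphocyte genes, natural killer and cytotoxic genes held 4 of 18 at least 2-fold higher and 2 lower. Klra7, Klra4, Klrd1 and Eomes differed by 1.25, 1.14, 1.08 and 1.03, and Gzmb, granzyme B, went from -0.21 to -2.49. Klra genes are near-identical, so their probes cannot be told apart with certainty. Of 15 regulatory T cell genes 1 was at least 2-fold higher and 2 lower, Lrrc32 (-1.25) and Ebi3 (-1.03). Foxp3 itself had levels of -1.82 and -2.48. All 33 proliferation genes were lower, none by 2-fold, with a median of -0.19. MHC class I genes had 0 of 20 past 2-fold and a median of -0.20, with B2m at -0.43, the list's lowest.

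Innate sensing, cytokine and lysosomal lists were mixed and held few genes past 2-fold, beside 1.82% higher and 2.08% lower among all genes. Of 29 Toll-like receptor and adaptor genes 1 was higher by 2-fold or more (Cd14) and 2 lower, with Cd180, a B cell relative of TLR4, at least 3.33-fold lower and Tlr11 at least 2.23-fold lower. Tlr7, a sensor of single-stranded RNA, differed by -0.83 and Tlr9 by 0.02. Of 20 cytokine and growth factor genes 1 was higher (Il1b) and 2 were lower (Il4 by -1.24, and Ebi3). Among 32 cytokine receptor genes Csf2rb2 alone was past 2-fold (-1.28), and the list's median, -0.01, changed sign with quantile normalization and median centring. Of 29 lysosomal genes 3 were at least 2-fold lower, Ctsh (-1.23), Cst3 (-1.02) and Ctsl, with a median of 0.05. Of 28 integrin and adhesion genes Itgad (1.21) and Vcam1 were higher and Itgax lower. Thymic epithelial genes held 1 of 14 lower (Ctsl) and had a median of -0.16, and fibroblast and endothelial genes held Fn1 (1.86) and Flt1 (2.15-fold) higher and Cdh5 (-1.16) lower of 14, with a median of 0.16.

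The genes with the largest differences belonged in part to these lists. Among genes measured on both arrays and at or above the 75th percentile on 1, the largest lower after Cox6a2 was Upb1, which breaks down pyrimidines, from 0.93 to -1.81. Klk1b5, Klk1b26, Klk1b24 and Klk1b3, differing by -2.72 to -2.29, are near-identical kallikreins whose probes may read one another and Klk1. Ccnd1, which encodes cyclin D1, went from 1.14 to -1.30, 5.44-fold lower. Slc2a6, a sugar transporter gene, differed by -2.43, and Kmo, an enzyme of tryptophan breakdown, by -2.09. Scimp, an adaptor of MHC class II signalling, differed by -2.05, and Ly6a, which encodes Sca-1, by -1.90. Csprs (-2.42) and Ppfia4 (-2.08) were less certain, since other probes of these genes gave -0.73 and -0.14.

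Among the higher genes Lpp led with 3.06, but its other probe gave 0.33. Hba-a2, an alpha globin, differed by 2.01, and Pde2a, a phosphodiesterase, went from 0.72 to 2.55. Eif2s3y, a Y-linked gene, went from -0.58 to 0.99, and Ddx3y, also Y-linked, from -2.19 to -0.86. Xist, transcribed from the inactive X, differed by -0.31. The part of a different share of males in the pools was not tested. Of genes dim on 1 array, Clec14a, V1rd19, Treh and Pdyn read higher by at least 7.67-fold, 6.78-fold, 6.72-fold and 5.27-fold. V1rd19 was less certain, since the mean over its probes gave a difference of 0.36. Lower by at least 9.97-fold and 9.53-fold were 1700012B07Rik and Calm4, followed by Itgb8 (9.53-fold), Sema5a (7.55-fold) and Cdh22 (7.19-fold).

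The CD45+EpCAM- differences were compared with those of the other sorted populations, whose arrays are separate. By the limma interaction, 0 of 13740 genes (0.0%) stood apart at an adjusted p of 0.05, and 257 had an unadjusted p under 0.05. That last count is a smaller share than 0.05 of the genes fitted, so it is no sign of genes that stand apart. The fit has 1 residual degree of freedom, which is the gap between the genotype differences of the other populations. A gene on which those differ widely thus has a large error. With normexp 10 genes passed, 6 higher and 4 lower. Among the smallest unadjusted p-values, all with an adjusted p of 1 by limma, were those of Olfr1286, Podn, Ifnlr1, Rnf217 and Pir on the lower side in CD45+EpCAM- cells and of Synpo2, Ttc9b, Rnase2a and Ccl1 on the higher side. Pir went from -1.88 to -5.47 and Ifnlr1, the interferon lambda receptor gene, from -1.76 to -4.67. Most of the others were not well above background on an array of the pair. Clec10a had an interaction of -3.54 (SE 0.83, unadjusted p = 0.0215) and Cox6a2 one of -2.70 (SE 0.58, unadjusted p = 0.0168), neither past the adjusted threshold.

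**Figure D5:**
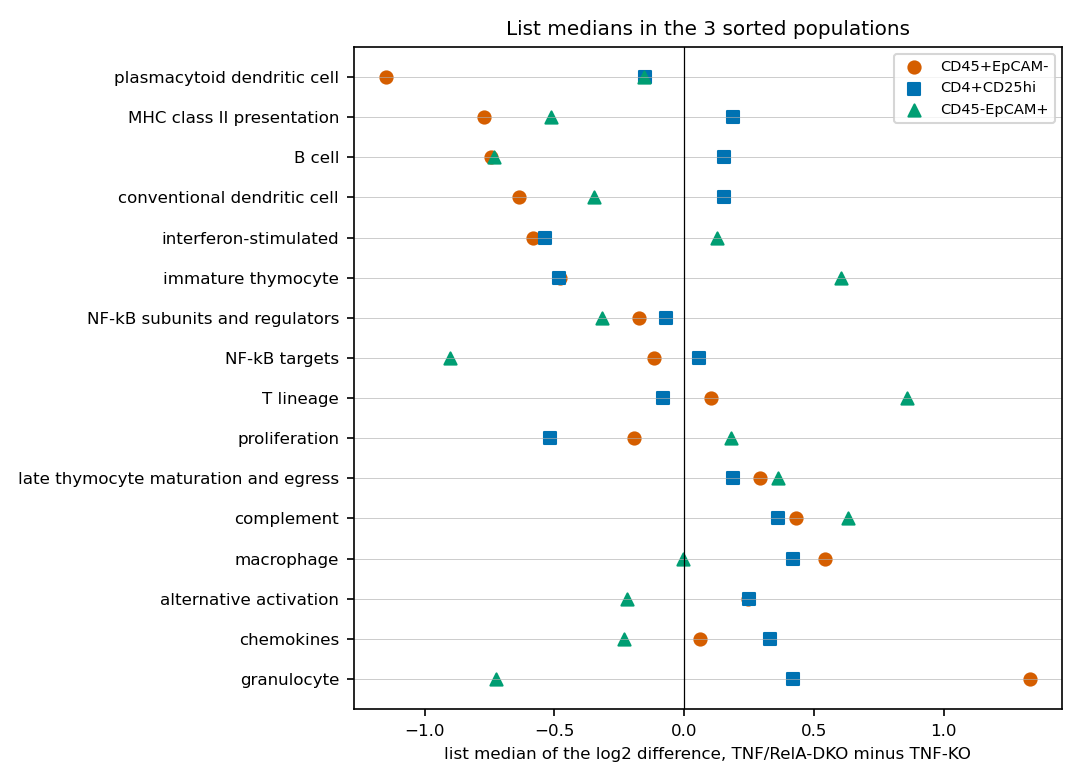
Median difference of 16 lists (rows), log2, TNF/RelA-DKO minus TNF-KO, in CD45+EpCAM- cells (circles), CD4+CD25hi thymocytes (squares) and CD45-EpCAM+ cells (triangles), with no test of the spread. The plasmacytoid list lies at -1.15 in CD45+EpCAM- cells against -0.15 in each other population, and the granulocyte list at 1.33 against 0.42 and -0.73.

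List medians in the other populations were set beside these as description, over the genes measured in each. The plasmacytoid list's median was -0.15 in each of the other two. The MHC class II list had 0.19 and -0.51. NF-kB targets had a median of -0.90 in CD45-EpCAM+ cells, where 19 of 42 were lower by 2-fold or more against 9.3% of all genes. Of the 303 lower genes, 202 had a fold in CD45-EpCAM+ cells, 71 of them at least 2-fold lower and 11 higher, against 9.3% and 5.1% of all genes there. In CD4+CD25hi thymocytes 135 had a fold, 20 lower and 11 higher, against 1.28% and 1.68%. Of the 265 higher genes, 161 had a fold in CD45-EpCAM+ cells, 21 of them higher and 45 lower, against the same 5.1% and 9.3%. In CD4+CD25hi thymocytes 114 had a fold, 28 higher and 5 lower, against 1.68% and 1.28%. The CD45-EpCAM+ TNF/RelA-DKO array was the dimmest of the 6, with 47.2% of probes well above background.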

How the data were processed

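The 6 arrays are single-colour Agilent mouse arrays of design 026655, hybridised, per the labels, with Cy3-labelled RNA from a low-input amplification. Each deposited scanner file gives an intensity per spot, which Feature Extraction 10.5.1.1 had corrected for background per the file headers. The submitters' processing notes give version 9.5 of that program. The value table the authors deposited is on a log2 scale and, set against the scanner files, equals the log2 processed signal minus the array's 75th percentile to within 0.0054, with 100.0% of probes within 0.05 after that offset. Its scale, centring and direction are thereby known. Its column medians were -3.63 and -3.58 for the TNF-KO and TNF/RelA-DKO CD45+EpCAM- arrays, -3.72 and -3.61 for CD4+CD25hi and -2.84 and -2.72 for CD45-EpCAM+.

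Control and outlier spots were left out. Of 39429 probes 39419 were used; 27472 (69.7%) took 1 symbol through their accessions in a GRCm38.p6 gene table, 35 several and 11912 none. The array design names another build, so no probe position is given. A gene took its brightest probe over the 6 arrays. Genes had to be well above background, by the scanner software's test, on at least 1 array of the pair. A dim side took its own value or, where that was lower, the array's lowest value well above background (-5.41 and -5.54). Of the 14613 genes, 13622 were measured on both arrays, 964 gave bounds and 27 no fold.

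The fit used limma 3.58.1 in R 4.3.3 on the 13740 genes that passed the background test on 3 or more arrays, with Benjamini-Hochberg adjustment. It was also run on data simulated around each gene's mean with the fit's own spread. That simulation held no differences between populations, so it does not show how the fit performs on these arrays, and its outcome is not reported here. The interaction is the only test. Slides held 1 population each, so slide and population cannot be told apart.

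The members and the 38 gene lists (809 genes, 787 named on the array) were chosen with earlier results of these data known, and list counts and medians have no test. Genes named are the 15 largest differences in each direction (both arrays well above background, at or above the 75th percentile on the brighter, probes agreeing in direction), the 5 brightest bounds in each direction, up to 6 members per list, cell type markers, Rela and Tnf, and the 5 smallest interaction p in each direction. Other list members named, such as Cd80, Cd86, Ciita, Lgmn, Lyz2, Mpo, Elane, Foxp3, Ifit1, Sirpa, Ccr7, Tlr9, H2-Oa, Nfkb1, Tnfaip3 and Oas2, were chosen after their values were seen. Some genes that the rule names are not reported here. Alternatives were normexp (offset 50, on the median signal, since the files used hold no mean signal column), quantile normalization, median centring, the mean over probes, the deposited table, other thresholds, and both arrays well above background. RefSeq promoter windows matched 11668 of the 14586 genes with a fold. Python 3.11.15 drew the figures.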

Additional observations from a re-analysis of the deposited data

Results flagged for a closer look

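Some genes differed in opposite directions between genotypes in CD45+EpCAM- and in CD45-EpCAM+ cells, each by at least 2-fold, with 1 array per genotype in each population. S100a8 differed by 2.19 in CD45+EpCAM- cells and by -1.82 in CD45-EpCAM+ cells. S100a9, its partner, differed by 2.07 and -1.86. The ribonuclease genes Ear2 and Rnase2a, which belong to an eosinophil-linked family of near-identical members, differed by 1.15 and -2.57 and by 1.20 and -1.71. Pde2a differed by 1.84 and -1.07. The difference between these 2 populations alone was not tested, since it leaves no residual degree of freedom. The limma interaction is no test of these genes. They were picked by their CD45+EpCAM- and CD45-EpCAM+ differences, which also enter the interaction. This holds for Rnase2a too, named above among the smallest p-values of that fit.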

How the results depend on the processing

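Genes at least 2-fold higher numbered 68 with normexp background correction and 174 with only genes well above background on both arrays, in place of 265. Genes at least 2-fold lower numbered 108 with normexp, in place of 303. Thresholds of 1.5-fold and 3-fold gave 779 and 88 higher and 666 and 122 lower. With normexp the medians were -0.43 for conventional dendritic cell, -0.48 for B cell, 0.86 for granulocyte, 0.21 for eosinophil and mast cell, 0.0535 for erythroid and megakaryocyte, 0.23 for Fc receptor and lectin, 0.0228 for alternative activation and 1.19 for Y-linked genes, and the interaction called 10 genes in place of 0. The cause was not tested. The median of cytokine receptor genes, -0.01, changed sign to 0.0107 with quantile normalization and 0.0034 with median centring. That of genes within 4-fold of CD4+CD25hi thymocytes, -0.0016, became 0.015 with median centring and 0.0022 with a 2-fold limit of enrichment. The other 256 of 266 alternatives for list medians kept their direction and moved by less than 0.21, the SD between probes of a gene. For single genes 1054 of 1224 did, and 170 moved by more, 121 with normexp, 28 with quantile normalization and 21 with the mean over probes. Of 139 genes at least 2-fold apart, 43 lay within 2-fold with normexp, 15 with quantile normalization, 5 with the mean over probes and 1 with median centring. Those with the mean over probes were Hmox1, Rnf217, Runx2, Siglecf and V1rd19. Those with normexp included Abca1, Cd14, Cd180, Cd55, Cd59a, Cd70, Cdh5, Clec4d, Clec9a, Ctsl, Ddx3y, Ear1, Ebi3, Eomes, Flt1, Fpr1, Fpr2, H2-DMb2, Hbb-bs, Hmox1, Ier3, Ifi44, Il1b, Il4, Klra4, Klrd1, Ltb4r1, Mertk, Msr1, Nfkb2, Olfr1286, Pdyn, Podn, Rnf217, Runx2, Scd1, Siglecf, Synpo2, Tlr11, Trem2 and Vpreb3. Of single genes, Epcam alone changed sign, from -0.0061 to 0.0106 with median centring, as did the median of all genes, from -0.0064 to 0.0103. The percent higher among genes at least 2-fold apart was 46.7 and, with normexp, 38.6. No paired analysis was possible because CD45+EpCAM- cells have 1 array per genotype; in the limma fit the population term already pairs the arrays of each population, which share a slide. The number of arrays limits the precision, and dim genes, near the floor, have bounds only.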

Other observations

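Genes of cholesterol handling went both ways in CD45+EpCAM- cells. Of 29 genes of cholesterol handling 3 were at least 2-fold higher and 1 lower, with a median of -0.27. The synthesis genes Cyp51, Msmo1 and Sqle differed by -0.72, -0.64 and -0.64, each within 2-fold. The apolipoprotein gene Apoc1 went from -0.01 to 1.57, Scd1, a fatty acid desaturase, differed by 1.26 and Abca1, the cholesterol exporter, by 1.02. Pltp, which transfers phospholipids between lipoproteins, differed by -1.53. The list's median was -0.61 on the CD4+CD25hi arrays and -0.26 on the CD45-EpCAM+ arrays.

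Iron and haem genes were higher on balance, with 3 of 17 at least 2-fold higher and a median of 0.21. Hp, which encodes haptoglobin and is stored in neutrophil granules, went from -2.44 to -0.37, and Hmox1 and Lcn2 are the other two. Slc11a1, Slc40a1 and Trf, an iron pump of phagosomes, the exporter ferroportin and transferrin, differed by 0.99, 0.96 and 0.96. Among 22 immediate-early genes Ier3 alone was past 2-fold (1.11), and 18 differences were above 0 (median 0.25). Of 27 apoptosis genes Bbc3, which encodes PUMA, was 2.40-fold higher, and their median was -0.13. Heat shock and unfolded protein genes held 0 of 18 past 2-fold, with a median of -0.20.

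Of 6083 probes with no single gene name that were well above background on both CD45+EpCAM- arrays, 56 were at least 2-fold higher and 75 lower, 2.15% in all. Of 13622 named genes measured on both, 174 were higher and 207 lower by as much.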
